A study of Mus musculus with 11 samples.

Results

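The nuclear genes of oxidative phosphorylation (OXPHOS) were examined for accessible chromatin at their promoters. They were taken as the protein-coding genes of the GENCODE vM21 mouse annotation on nuclear chromosomes whose symbol begins with Nduf, Uqcr or Atp5, is Sdha, Sdhb, Sdhc or Sdhd, or begins with Cox and a number. This rule gave 102 genes of 21938 nuclear protein-coding genes. They comprised 83 genes of structural subunits (36 of complex I, 4 of complex II, 8 of complex III, 19 of complex IV and 16 of complex V) and 19 genes of assembly and other factors that share the same symbol stems.

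Open chromatin was mapped with the Tn5 transposase, which cuts accessible DNA (ATAC-seq), in the MPC2 line, a single conditionally immortalised clone of mouse mesenchymal progenitors. Undifferentiated cells (MSC) were sampled in 3 vehicle (DMSO) and 3 FG-4592 cultures, and osteocytes, differentiated over 3 weeks, in 2 vehicle and 3 FG-4592 cultures. FG-4592 (Roxadustat), which inhibits the HIF prolyl hydroxylases and so mimics hypoxia, was given at 50 uM for 48 hours. All 11 cultures were combined in the 1 list of regions analysed here, which gives a single value per region, read as the average log2 CPM (Tn5 cuts scaled to library size). No culture or group had a value of its own, so no effect of FG-4592 or of differentiation could be measured, no value below has a replicate error, and the depth of each culture is unknown.

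Oxidative phosphorylation takes electrons from NADH at complex I and from succinate at complex II, passes them through complex III and cytochrome c to oxygen at complex IV, and uses the resulting proton gradient to make ATP at complex V. Most of the subunits are encoded in the nucleus and are made in nearly every cell. A few subunits of complex IV exist as a broadly expressed form and a second form that is largely limited to certain tissues, such as heart and skeletal muscle for Cox6a2, Cox7a1 and Cox8b, lung for Cox4i2, and testis for Cox6b2, Cox7b2 and Cox8c. COX4I2 and NDUFA4L2 are also known as genes induced in hypoxia through HIF. Ndufa4l2 was counted among the tissue-limited isoforms as the second form of Ndufa4, without a tissue named for it here.

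A gene was counted as having a promoter region where a region of the list lay within 1000 bp of an annotated transcript start, and its promoter level was the log2 CPM of the highest such region. A promoter region was present for 93 of the 102 OXPHOS genes (91.2%, 95% Wilson interval 84.1 to 95.3), against 64.1% of all nuclear protein-coding genes. Coding promoters differed widely by CpG content: 91.1% of coding genes with a CpG ratio (observed over expected, within 500 bp of the start) of at least 0.6 had a promoter region, against 32.8% of those with a ratio under 0.5. Among the OXPHOS genes 83 of 102 (81.4%) were CpG-rich by that measure, against 47.6% of coding genes, and 81 of those 83 had a region. The subunits other than the tissue-limited isoforms had one in 73 of 75 genes (97.3%, interval 90.8 to 99.3), an interval that includes the share of CpG-rich coding genes. A region that is missing from the list says nothing on its own about which cultures lacked it, and a low level in a pooled list cannot tell fewer open cells or cultures from a weaker signal in all of them.

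**Figure D1:**
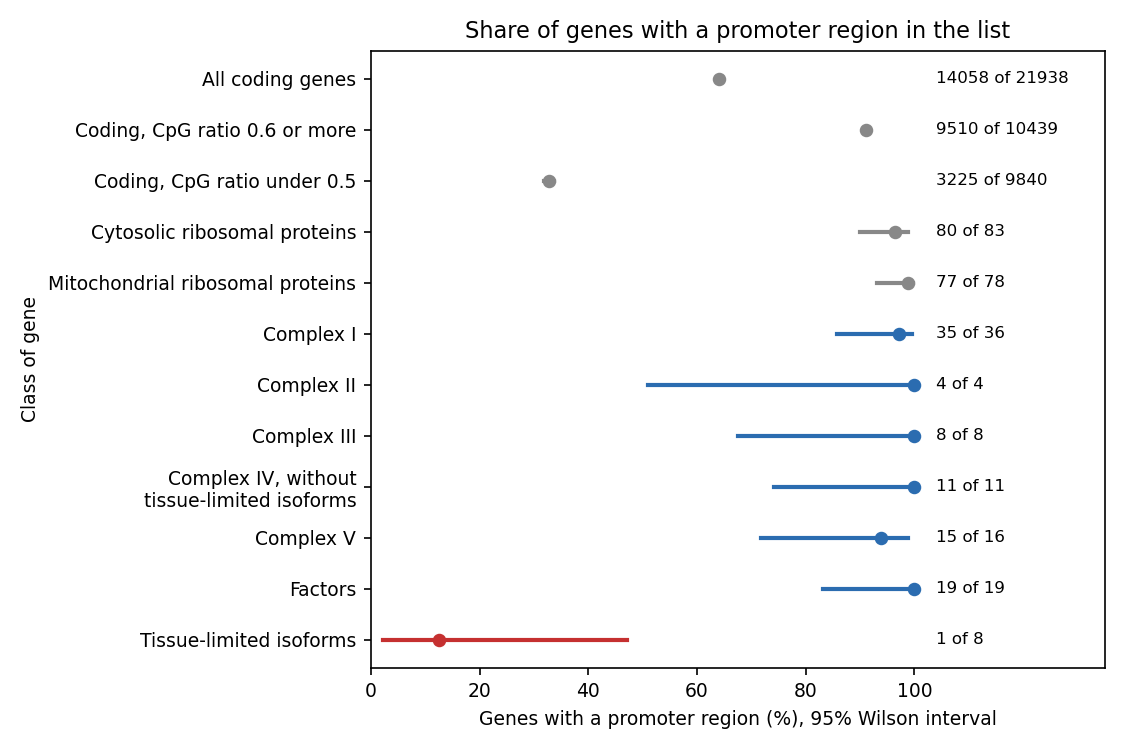
Share of genes with a promoter region in the list (x axis, %) for classes of genes (y axis), with points at the share, lines for the 95% Wilson interval, and counts at the right. Complexes II and III, complex IV without its tissue-limited isoforms and the factors had a region at every gene, whereas 1 of 8 tissue-limited isoforms had one; all coding genes stood at 64.1%.

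All complexes had promoter levels around the middle of the coding genes. The 74 subunit genes with a promoter region had a median of 5.16 log2 CPM, beside 5.03 for all coding genes with one (quartiles 3.84 and 5.75) and 5.32 for the CpG-rich coding genes. Medians were 5.13 for complex I, 5.09 for complex II, 5.07 for complex III, 5.02 for complex IV and 5.25 for complex V. The spread was narrower than among coding genes, with an interquartile range of 0.92 for the subunits against 1.91. Of the 93 OXPHOS genes with a region, 60 (64.5%) lay above the coding median, against 61.8% of CpG-rich coding genes with a region. Above the upper quartile lay 19 (20.4%), against 31.9% of CpG-rich coding genes. Below the lower quartile lay 5 (5.38%), against 25% of coding genes and 13.3% of CpG-rich coding genes. Wide regions collect more cuts, and the log2 CPM of the OXPHOS genes followed the log2 width of the region (Pearson r 0.54 across 93 genes, which are not independent replicates). Their median width was 1151 bp against 1134 bp for coding genes, and their median level was 0.12 above that of coding promoters of like width.

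**Figure D2:**
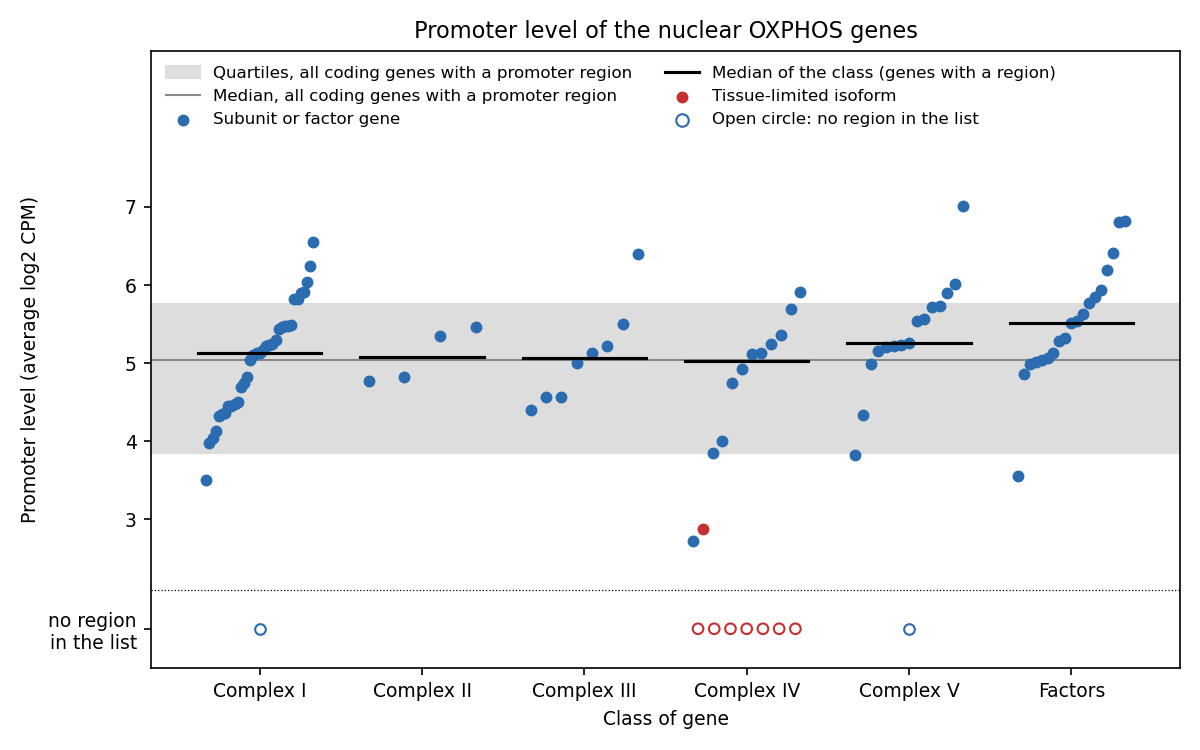
Promoter level (y axis, average log2 CPM of all cultures) of each OXPHOS gene by class (x axis), ordered by level within a class. Black lines are class medians over genes with a region, the grey band and line are the quartiles and median of all coding genes with a region, and open circles are the 9 genes without one, of which 7 are tissue-limited isoforms (red).

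Complex I, the NADH dehydrogenase, had a promoter region at 35 of 36 subunit genes, from 3.50 to 6.55 log2 CPM. Ndufa11, an accessory subunit of the membrane arm, was the highest at 6.55, above 94.6% of coding promoters, in a region shared with the start of Vmac 82 bp away. Ndufs8, an iron-sulfur subunit that is conserved in bacteria, followed at 6.24 in a region of 985 bp, 1.36 above coding promoters of that width. The subunits that take up electrons from NADH lay between 5.44 and 6.05, with Ndufv2 at 6.05, Ndufv1, which carries the flavin, at 5.47 and Ndufs1 at 5.44. Ndufs4, an accessory subunit whose loss in mice models Leigh syndrome, was the lowest at 3.50, above 21.4% of coding promoters. Ndufa9 and the X-linked Ndufa1 were next at 3.97 and 4.04. The genes of this 1 complex thus spanned 3.05 log2 units.

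Complex II, succinate dehydrogenase, is also an enzyme of the citric acid cycle and has no subunit encoded in mitochondria. All 4 of its genes had a promoter region. Sdha, the flavoprotein that oxidises succinate, was at 4.77, and Sdhb, the iron-sulfur protein, was at 5.34. The membrane anchors Sdhc and Sdhd were at 5.46 and 4.83. The 4 genes lay within 0.69 log2 units of each other. Sdha shared its region with Ccdc127 and Sdhd with Timm8b, which encodes a protein of mitochondrial import, each on the other strand. The region of Sdhb was the narrowest at 760 bp and, at that width, stood 1.24 above like coding promoters.

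Complex III, the cytochrome bc1 complex, had a region at all 8 genes. Uqcrh, the hinge protein, was the highest at 6.40 in the widest promoter region of the OXPHOS genes, 2490 bp, shared with Lrrc41, and once width was considered it stood 0.25 above like coding promoters. The Rieske protein Uqcrfs1 was at 4.57 and the core proteins Uqcrc1 and Uqcrc2 were at 4.40 and 5.22. Complex IV, cytochrome c oxidase, had a region at 12 of 19 genes, and all 7 without one were tissue-limited isoforms. Among its other 11 genes the levels ran from 2.72 (Cox7b) to 5.91 (Ndufa4), with Cox5a at 5.24, Cox5b at 5.13, Cox6c at 4.01 and Cox7c at 4.92.

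Complex V, the ATP synthase, had a region at 15 of 16 genes. In the catalytic head, the alpha, beta, gamma, delta and epsilon subunits Atp5a1, Atp5b, Atp5c1, Atp5d and Atp5e were at 5.23, 5.73, 5.89, 6.01 and 5.25. Atp5j, coupling factor 6 of the stalk, was the highest OXPHOS gene at 7.01, above 98.5% of coding promoters, in a region of 2026 bp. That region also held the start of Gabpa 31 bp away on the other strand, and Gabpa encodes the DNA-binding part of GABP (NRF-2), an ETS factor known to regulate OXPHOS genes, so a single value serves both genes. Atp5o, which links stalk and head, was at 4.99. The smallest values were those of the membrane subunits Atp5k (subunit e) at 3.83 and Atp5j2 (subunit f) at 4.33. Atp5g1, Atp5g2 and Atp5g3 encode the same mature c subunit of the rotor behind different import sequences. Atp5g2 was at 5.56 with 5 regions in its window, and Atp5g3 was at 5.16 with 1. The list held no region for Atp5g1.

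The factor genes had a region in 19 of 19 cases, with a median of 5.51. Cox20, a chaperone of the mitochondrially encoded COX2, and Cox14, which acts in the synthesis of COX1, were at 6.82 and 6.81, next below Atp5j among all OXPHOS genes, and Ndufaf8, an assembly factor of complex I, was at 6.42. Cox10 and Cox15, which make heme A in successive steps, were at 4.99 and 5.55, and Cox11 and Cox17, which deliver copper, were at 5.85 and 5.07. The lowest factor gene was Ndufaf1 at 3.56. Outside the symbol rule, 17 of 20 further assembly factors and carriers had a region, with a median of 5.19. The 3 without one were Cyct, Sdhaf1 and Slc25a31, of which Cyct and Slc25a31 are germ-line forms, while the somatic cytochrome c (Cycs) and ADP/ATP carriers Slc25a4 and Slc25a5 were at 6.26, 5.63 and 4.88. Of 13 nuclear regulators of mitochondrial genes all 13 had a region, with a median of 6.18, a highest value of 7.91 (Sp1) and a lowest of 3.00 (Ppargc1a, which encodes the coactivator PGC-1 alpha). The regulators Nrf1, Yy1, Esrra and Tfam were at 5.69, 6.61, 6.32 and 5.29.

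The 8 tissue-limited isoforms differed from their partners in this list. Each of the 7 partner genes had a promoter region, with levels from 2.72 to 5.91. Cox7a1 was the only one of the 8 tissue-limited genes with a region, at 2.87 (12.5%, interval 2.24 to 47.1). The share was 64.1% for all coding genes and 32.8% for those with a CpG ratio under 0.5, and the interval includes the second. With a promoter window of 2000 bp, 3 of the 8 had a region (Cox6a2, Cox7a1 and Ndufa4l2). All 8 had a CpG ratio below 0.5 (0.19 to 0.47) and each ratio was lower than that of its partner. The 4 other OXPHOS genes with a ratio under 0.5 (Cox7b, Atp5j2, Atp5f1 and Cox19) had a region. The ratio was taken at the main transcript start of each gene and a region at any annotated start, so they may describe different promoters. The part of CpG content in the missing regions of the tissue-limited genes was not tested. Cox7a1 was 2.25 log2 units lower than Cox7a2 (5.12), and its region, at chr7:30183893-30184652 (mm10), was 760 bp wide against 1166 bp and covered its start. That level lay 1.23 below coding promoters of like width. Cox4i1, the form found in most tissues, was at 5.37, Cox6a1 at 4.74, Cox6b1 at 3.85, Cox8a at 5.70 and Ndufa4 at 5.91.

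**Figure D3:**
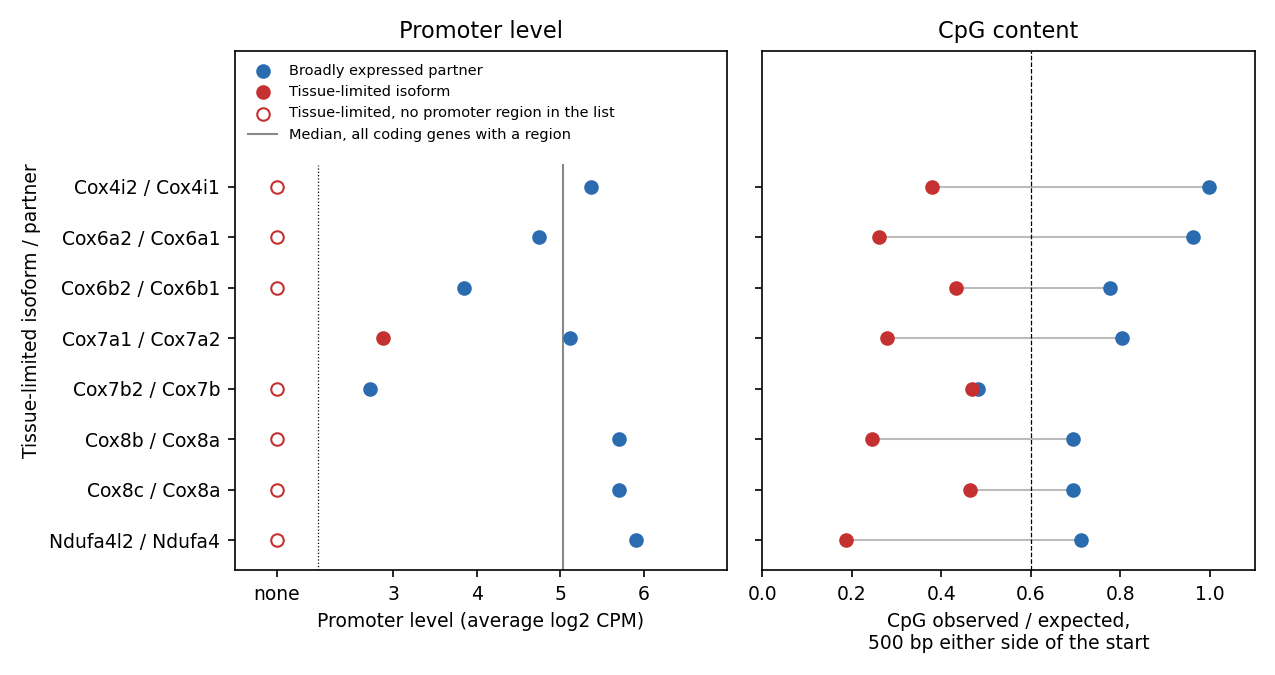
For each pair of a tissue-limited isoform and its broadly expressed partner (y axis), the promoter level (left x axis, average log2 CPM) and the CpG ratio within 500 bp of the start (right x axis). Open red circles are tissue-limited genes without a promoter region. Every partner had a region and Cox7a1 alone among the tissue-limited genes had one, and the CpG ratio was lower in the tissue-limited gene of every pair, by the least for Cox7b2 (0.47 against 0.48).

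Cox7b was the exception among the partners. It was the lowest of all OXPHOS genes with a region (2.72, 520 bp), and its CpG ratio of 0.48 was close to the 0.47 of Cox7b2. Atp5j2 went the other way, with the lowest CpG ratio outside the tissue-limited class (0.22) and a region at 4.33. Atp5f1 and Cox19 likewise had ratios of 0.46 and 0.48 and levels of 5.54 and 5.33. Across the 93 OXPHOS genes with a region, CpG ratio and level were weakly related (Pearson r 0.35), a description over genes measured in the same libraries.

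Markers of striated muscle, the male germ line and the bone lineage were looked up in the same list, beside 64.1% of all coding genes and 32.8% of those with a CpG ratio under 0.5 that had a promoter region. Of 6 genes of striated muscle, Ckm and Acta1 had a promoter region, at 2.61 and 0.83, and Myh7, Myl2, Tnnt2 and Ckmt2 had none. Of 6 genes of the male germ line 0 had one. Of 8 genes of the bone lineage, 6 had one, with Runx2 at 5.05, Col1a1 at 4.93, Dmp1 at 4.41, Sp7 at 4.06, Bglap at 3.74 and Alpl at 2.33. The list held no promoter region for Phex and Sost. The first 5 of these bone genes had CpG ratios of 0.15 to 0.30, but Sost, without a region, was within that range at 0.22 and Phex was at 0.36. Alpl, the lowest of the bone genes with a region, had a ratio of 0.69. The germ-line gene Ddx4, without a region, was CpG-rich at 0.75, a class in which 91.1% of coding genes had one.

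Regions did lie near some of the tissue-limited genes. Ndufa4l2 had 2 regions upstream of its start, at chr10:127512657-127513744 with 4.72 log2 CPM and at chr10:127511814-127512412 with 3.29, whose midpoints were 1767 and 2854 bp before the start. The first held 2 copies of the G form of the core hypoxia response element (GCGTG, or CACGC on the other strand), 1 of them in its central 200 bases, as in 15.7% of all regions of the list. They are shown because this gene is known for its induction in hypoxia, with the core in capitals, and both are read from the GRCm38 genome on the strand of the gene.
Ndufa4l2 first core, chr10:127512838-127512842: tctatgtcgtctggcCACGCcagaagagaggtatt
Ndufa4l2 second core, chr10:127513104-127513108: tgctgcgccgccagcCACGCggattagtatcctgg

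Cox4i2 had 2 regions inside the gene, of 3.16 and 0.72 log2 CPM, with midpoints 4247 and 10103 bp after its start. Cox6a2 had 1 at 1.07 inside Itgad, its near edge 1873 bp before the start of Cox6a2. Cox8b had 1 at 1.66, its near edge 2782 bp before the start. The list held no region in the windows of Cox6b2, Cox7b2 and Cox8c, whose nearest regions were 11847, 109566 and 13016 bp away. Hypoxia cores were not limited to Ndufa4l2: over whole regions, the 367 bp of Cox8b held 3 sites of either form and the 760 bp promoter region of Cox7a1 held 3, while those of Cox4i2 and Cox6a2 held 0. These counts, and that of Ndufa4l2, were not set beside whole regions of like width in the rest of the list. The regions of Ndufa4l2 were the highest near any of the 7, and its start was 1223 bp from the nearer one.

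The DNA before the starts is shown for the 4 pairs with both genes in the RefSeq promoter table (GRCm38.p6), because the difference in CpG content can be read from it directly. Each line gives the 120 bases before the RefSeq start, on the strand of the gene, with capitals for any match to the 8 motifs searched. The places are chr7:30626115-30626234, minus strand for Cox6b1, chr7:4753095-4753214, minus strand for Cox6b2, chr9:79759854-79759973, minus strand for Cox7a2, chr7:30184051-30184170, plus strand for Cox7a1, chrX:106015580-106015699, plus strand for Cox7b, chr5:71548206-71548325, minus strand for Cox7b2, chr19:7217617-7217736, minus strand for Cox8a and chr7:140900447-140900566, minus strand for Cox8b.
Cox6b1: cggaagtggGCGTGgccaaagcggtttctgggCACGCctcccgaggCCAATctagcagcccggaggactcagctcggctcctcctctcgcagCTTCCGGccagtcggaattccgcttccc
Cox6b2: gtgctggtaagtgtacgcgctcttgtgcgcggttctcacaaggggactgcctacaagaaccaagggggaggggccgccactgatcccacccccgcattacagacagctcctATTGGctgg
Cox7a2: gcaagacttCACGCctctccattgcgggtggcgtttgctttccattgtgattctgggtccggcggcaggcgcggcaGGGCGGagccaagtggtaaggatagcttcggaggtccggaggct
Cox7a1: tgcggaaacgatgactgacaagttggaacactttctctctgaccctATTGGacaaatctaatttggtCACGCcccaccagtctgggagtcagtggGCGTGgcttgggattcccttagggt
Cox7b: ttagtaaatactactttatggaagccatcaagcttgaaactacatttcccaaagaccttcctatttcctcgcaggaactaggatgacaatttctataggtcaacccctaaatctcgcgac
Cox7b2: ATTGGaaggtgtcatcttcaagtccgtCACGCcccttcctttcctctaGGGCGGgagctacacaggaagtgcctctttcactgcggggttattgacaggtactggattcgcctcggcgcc
Cox8a: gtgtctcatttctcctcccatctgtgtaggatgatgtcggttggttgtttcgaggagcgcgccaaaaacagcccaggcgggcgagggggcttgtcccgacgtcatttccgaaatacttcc
Cox8b: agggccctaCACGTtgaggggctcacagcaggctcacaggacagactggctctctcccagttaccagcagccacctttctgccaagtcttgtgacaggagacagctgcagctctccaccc

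In these 120 bases Cox6b1 held 11 CpG and Cox6b2 held 6, Cox7a2 held 10 and Cox7a1 held 4, and Cox8a held 9 and Cox8b held 1. In the remaining pair the order was the other way, with 3 in Cox7b and 7 in Cox7b2. The ETS motif of Cox6b1 began 28 bases before the start and had no counterpart in Cox6b2. Cox7b and Cox8a held none of the 8 motifs in this stretch although both genes had a promoter region.

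Both remaining genes without a promoter region, Atp5g1 and Ndufa6, were CpG-rich (ratios of 0.67 and 0.80) and broadly expressed. Their nearest regions were 40285 and 17331 bp away, and their windows held 0 regions. Around the first of them, other coding starts were also without one: within 50 kb of Atp5g1, 1 of 3 coding genes had a promoter region (Snf8, at 3.96, and neither Ube2z nor Calcoco2). The part of the neighbourhood in this was not tested. The sequences before the starts, chr11:96075632-96075751, minus strand, and chr15:82354292-82354411, minus strand, are shown because these genes stand apart from the other broadly expressed subunits, with capitals as above.
Atp5g1: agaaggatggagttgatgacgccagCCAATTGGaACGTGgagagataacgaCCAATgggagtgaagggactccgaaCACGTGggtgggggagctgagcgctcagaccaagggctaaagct
Ndufa6: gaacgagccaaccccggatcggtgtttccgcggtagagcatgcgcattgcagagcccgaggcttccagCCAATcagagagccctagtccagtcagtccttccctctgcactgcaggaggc

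Atp5g1 held the CCAAT box of NF-Y at 2 places and the A form of the hypoxia core (ACGTG) at 2 places in these 120 bases, 1 place of each being a palindrome read on both strands, and Ndufa6 held CCAAT 52 bases before the start.

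**Figure D4:**
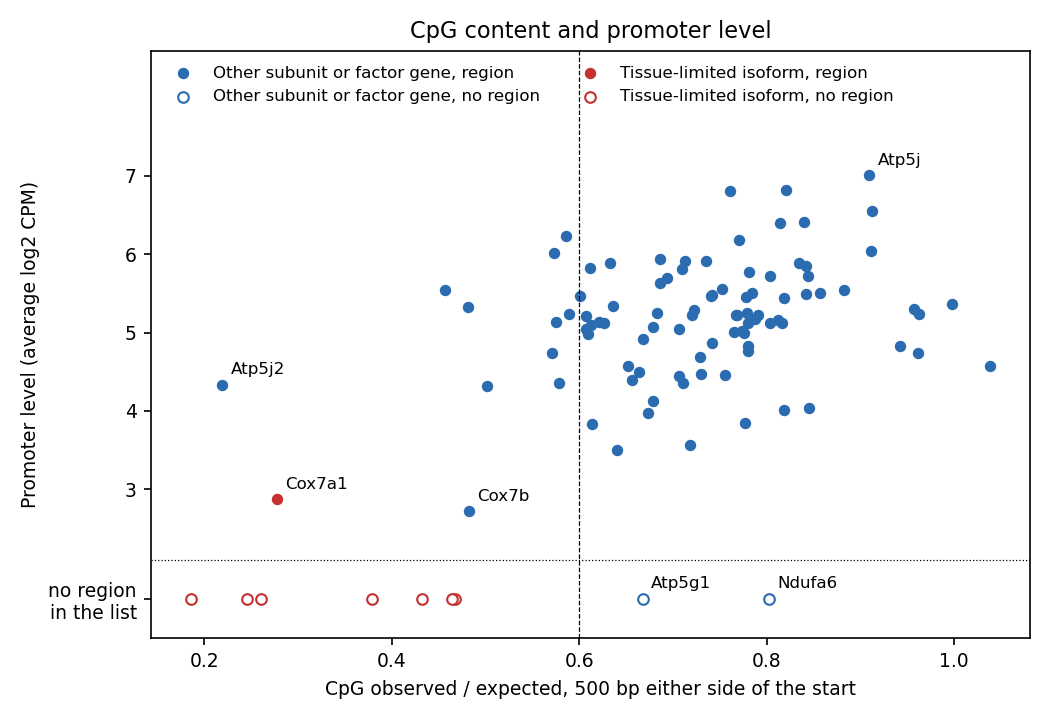
CpG ratio (x axis) and promoter level (y axis, average log2 CPM) of the 102 OXPHOS genes. Open circles are the 9 genes without a promoter region, 7 of them tissue-limited isoforms with ratios under 0.5 and the others Atp5g1 and Ndufa6, and the dashed line is the ratio of 0.6.

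Many OXPHOS genes shared their promoter with a neighbour. The promoter region of 38 of the 93 genes (40.9%) also lay at the start of another coding gene, leaving out genes annotated only as readthrough transcripts (such as Gm21987 at Cox17), against 19.2% of all coding genes with a promoter region and 22.3% of CpG-rich ones. The share was 44.2% for the mitochondrial ribosomal protein genes and 17.5% for the cytosolic ones, families that, like the OXPHOS genes, are regarded as housekeeping genes. In all 38 cases a partner lay on the opposite strand, and the nearest start was a median of 82.5 bp away (at most 1216 bp). Ndufs1 and Eef1b2, a translation elongation factor, started 3 bp apart (5.44), and so did Ndufb11 and Rbm10 (5.46). Ndufb5 was paired with Mrpl47 (5.91) and Ndufs6 with Mrpl36 (4.35), both genes of the mitochondrial ribosome, and Ndufa7 with the ribosomal gene Rps28 (4.45). Among the complexes, a shared region was found for 16 of 35 genes of complex I, 3 of 4 of complex II, 4 of 8 of complex III, 2 of 12 of complex IV and 6 of 15 of complex V. A level in a shared region cannot be assigned to either gene.

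The promoter levels of the same families were set beside those of the OXPHOS genes. A region was present for 80 of 83 cytosolic and 77 of 78 mitochondrial ribosomal protein genes, with medians of 5.13 and 4.83 log2 CPM beside 5.22 for the OXPHOS genes. Their interquartile ranges were 0.68 and 1.37, beside 0.82.

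Further regions were fewer around the OXPHOS genes than around all coding genes. The windows from 5 kb upstream to the gene end held 165 regions, a median of 1 per gene against 2 for coding genes. Of these, 109 were promoter regions of the gene itself, 7 others lay at the start of another coding gene, and the remaining 49 lay at 32 of 102 genes (31.4%), against 49.2% of all coding genes. The share was 15.7% for the cytosolic and 32.1% for the mitochondrial ribosomal protein genes. The OXPHOS genes were also shorter than coding genes, with a median length of 7419 bp against 17425 bp. The part of length in the share of 31.4% was not tested. Cox10 had the most regions, 7, of which its promoter was at 4.99 and the other 6 lay between 0.18 and 1.76. Ndufaf2 had 6, including a region at 5.65 within the gene that is the promoter of Smim15. Atp5g2 had 5, of which 2 counted as promoter regions (5.56 and 5.25) and the others were at 3.61, 2.41 and 1.07.

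On chromosome 16, where the median promoter level of all coding genes was 5.60, the 4 OXPHOS genes were at 7.01 (Atp5j), 5.82 (Ndufb4), 5.07 (Cox17) and 4.99 (Atp5o). On the X chromosome, where it was 4.58, the 3 genes were at 5.46 (Ndufb11), 4.04 (Ndufa1) and 2.72 (Cox7b). The highest OXPHOS value lay on the first and the lowest on the second, and the part of the chromosome in them was not tested.

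Known binding motifs were searched on both strands of the RefSeq promoter windows (250 bases before to 50 after the start), which the table gave for 83 of the 102 genes (81.4%). The core of the NRF1 site, GCGCANGCG, was present in 21 of 83 windows (25.3%, interval 17.2 to 35.6), against 8.83% of all coding promoters in the table and 16.7% of CpG-rich coding promoters with a region. The ETS motif CCGGAAG, to which GABP binds, was in 22 (26.5%, 18.2 to 36.9), against 11.9% and 20.2%. The YY1 motif AAGATGGCG was in 8 (9.64%, 4.97 to 17.9), against 1.94% and 3.69%. At least 1 of these motifs of known OXPHOS regulators was held by 42 of 83 genes (50.6%) and by 35.8% of CpG-rich coding promoters with a region. The Sp1 box GGGCGG was in 40 (48.2%, 37.8 to 58.8), near the 46.3% of all coding promoters and below the 72.1% of CpG-rich ones. Beside the CpG-rich promoters, and over the 8 motifs searched, the intervals of NRF1, YY1 and the AP-1 site lay above and that of Sp1 lay below. The other 4 included the value. The sets are unlike, because the 83 windows were not limited to CpG-rich genes or to genes with a region. Over the 78 windows of OXPHOS genes with a promoter region, of any CpG ratio, the shares were 25.6% for NRF1, 10.3% for YY1, 7.69% for AP-1 and 47.4% for Sp1. These are shares over genes, and they were not compared by a test.

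**Figure D5:**
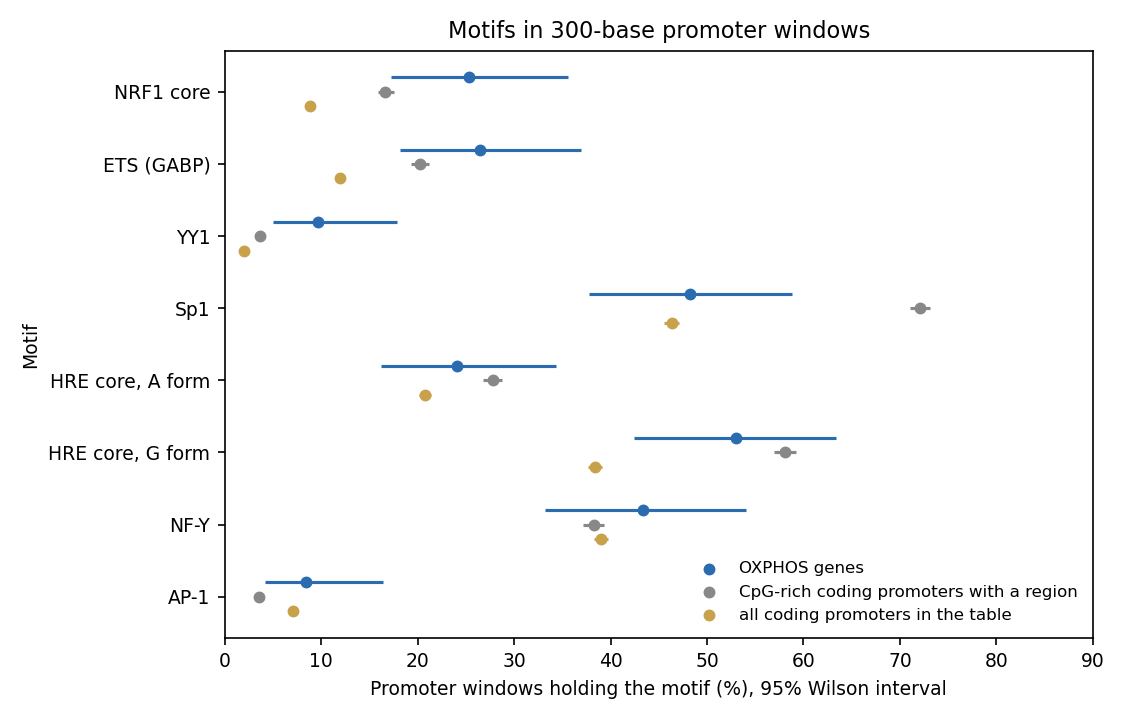
Share of 300-base promoter windows with each motif (x axis, %, lines are 95% Wilson intervals) for the 83 OXPHOS genes in the table, CpG-rich coding promoters with a region, and all coding promoters in the table. The NRF1, ETS, YY1, NF-Y and AP-1 points of the OXPHOS genes lie to the right of both other sets, and their Sp1 point lies near that of all coding promoters.

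The remaining motifs are bound by factors not known chiefly for OXPHOS genes. The A and G forms of the hypoxia core (ACGTG and GCGTG) were in 24.1% and 53.0% of OXPHOS windows, against 27.8% and 58.1% of CpG-rich promoters with a region. The NRF1 core GCGCACGCG contains the G form on the other strand, so those counts overlap. CCAAT was in 43.4% against 38.3%, and the AP-1 site TGANTCA was in 7 windows (8.43%, 4.15 to 16.4), against 3.53% of CpG-rich promoters with a region and 7.08% of all coding promoters. By complex, and leaving out tissue-limited isoforms, the NRF1 core was in 8 of 32 windows of complex I, 2 of 3 of complex II, 2 of 5 of complex III, 1 of 9 of complex IV and 6 of 14 of complex V. The YY1 motif was in 5 of 32 windows of complex I, and the Sp1 box was in 0 of 5 of complex III, which says no more than that these letters were not in those windows.

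The stretches below show the motifs of 6 genes, picked after the values were seen as clear examples of the NRF1 core (Sdha, Sdhd, Ndufa11, Atp5g2) and the ETS motif (Sdhd, Cox20, Uqcrh), again as the 120 bases before the RefSeq start. They lie at chr13:74350241-74350360, minus strand, chr9:50603850-50603969, minus strand, chr17:56717642-56717761, plus strand, chr15:102671048-102671167, minus strand, chr1:178319033-178319152, plus strand, and chr4:116075071-116075190, minus strand, in that order.
Sdha: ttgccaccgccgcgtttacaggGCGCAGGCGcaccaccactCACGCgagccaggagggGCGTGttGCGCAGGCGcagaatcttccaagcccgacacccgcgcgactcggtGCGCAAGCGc
Sdhd: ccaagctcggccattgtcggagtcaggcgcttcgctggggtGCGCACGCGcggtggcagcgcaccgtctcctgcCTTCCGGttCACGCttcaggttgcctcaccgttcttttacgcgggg
Ndufa11: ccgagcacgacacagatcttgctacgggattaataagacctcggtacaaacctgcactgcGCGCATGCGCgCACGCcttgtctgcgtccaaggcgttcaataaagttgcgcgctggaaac
Atp5g2: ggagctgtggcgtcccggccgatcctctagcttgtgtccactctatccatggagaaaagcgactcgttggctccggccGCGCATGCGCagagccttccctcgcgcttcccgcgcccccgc
Cox20: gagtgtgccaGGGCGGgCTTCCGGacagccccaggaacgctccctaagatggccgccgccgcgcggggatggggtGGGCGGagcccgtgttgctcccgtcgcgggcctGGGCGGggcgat
Uqcrh: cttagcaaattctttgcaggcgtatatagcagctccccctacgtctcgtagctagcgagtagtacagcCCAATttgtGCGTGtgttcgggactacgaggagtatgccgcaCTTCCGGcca

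Sdha held the NRF1 core 3 times, beginning 98, 55 and 10 bases before the start, with a level of 4.77. Sdhd held the NRF1 core at 79 bases and the ETS motif, read here on the other strand, at 46 bases. In Ndufa11 and Atp5g2 the core was read on both strands of the same palindrome, at 60 and 42 bases. The ETS motif of Uqcrh began 10 bases before its start, and Cox20 held 1 ETS motif at 103 bases with 3 Sp1 boxes. Genes with the NRF1 core ran from 3.83 (Atp5k) to 6.55 (Ndufa11) and included Ndufa6, which had no region.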

How the data were processed

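ATAC-seq of 11 MPC2 cultures was processed by the authors: reads were trimmed with Trim Galore, aligned to mm10 with Bowtie2, freed of duplicates with Picard 2.17.8, and stripped of low-quality and mitochondrial alignments. Peaks were called by the authors with MACS2 2.2.7.1, merged over samples and freed of blacklisted regions, and cuts were counted and normalised by the authors with TMM in edgeR 3.24.3. A Tn5 shift is not given in the sources used here. The deposited list held 94963 regions with 1 value each, read as average log2 CPM because 460 values were below 0 and the values, taken out of the log2 scale, added up to 1012761. This unit was inferred.

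Coordinates are 1-based mm10, the same assembly as GRCm38, and 0 regions passed a chromosome end. Of 103 annotation records for the 102 genes, the long readthrough record of Atp5o was set aside. The CpG ratio was taken over 1001 bp around the main transcript start of each gene. The definition of CpG-rich (ratio at least 0.6) was changed after the values were seen: with GC content of at least 55% also required, 91.6% of CpG-rich and 45.6% of other coding genes had a promoter region, and 58 of 60 and 35 of 42 OXPHOS genes. Levels of like width are medians within 20 width bins of coding promoters. Genes, lists and tests were chosen with earlier results of these data known, and the marker lists, the neighbours within 50 kb of a gene and the sequences of 6 further genes were chosen after the values were seen. Named genes were the isoform pairs, the Atp5g and Sdh genes, members without a region, the 5 highest, 5 lowest and those with most regions, and those on chromosome 16, and other genes were named after their values were seen. A few results are not reported here. No test between groups was possible. Wilson intervals (95%) cover counting error only. Scripts were tested on simulated data. Python 3.11.15, numpy 2.4.6, pandas 2.3.3 and scipy 1.17.1 were used.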

Additional observations from a re-analysis of the deposited data

How the results depend on the processing

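Of 23 alternatives to the 4 main values, 17 left the value within the tolerance used, which was the Wilson interval for a share, the value to 2 decimals for a median and a change of up to 1.5 times for a count, so a count could move far within it. The share of subunit genes with a promoter region (89.2%) rose to 97.3% without the tissue-limited isoforms, an alternative chosen after seeing the data. The median level of the subunits (5.16 log2 CPM) was 5.14 with a promoter window of 2000 bp, 5.18 with CPM summed over the regions of a promoter, 5.13 without shared promoters and 5.22 with the factor genes. With the window of 2000 bp, 3 tissue-limited isoforms had a promoter region in place of 1, the added ones being Cox6a2 and Ndufa4l2, whereas with 500 bp the same 9 genes had none. The 165 regions in the gene windows became 139 with 0 kb and 207 with 10 kb upstream, 113 at a width of at least 500 bp, 114 without regions at the start of another coding gene (promoters that the OXPHOS gene shares included), and 198 with the long Atp5o record kept, also chosen after seeing the data. No paired analysis was possible because all samples were pooled into 1 value per region, and no replicate could be left out for the same reason. Regions under the authors' limits of calling or counting are not in the list, so a gene without one may still be weakly open.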
